A study of Mus musculus with 28 samples.

Results

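Chondrogenic cultures of mouse cranial neural crest cells were compared with proliferating cultures of the same cells at 0.5% O2, across all genes. The libraries were chosen by their labels alone: 3 hypoxic chondrocyte libraries and 3 hypoxic proliferating libraries, 6 of the 28 in the series. All cells were O9-1, an established line derived from the mouse cranial neural crest, the embryonic population that forms much of the skull, face and palate. Proliferating cells were kept at 0.5% O2 in DMEM conditioned by STO feeder cells, with 15% FCS, 25 ng/ml bFGF and 5 ng/ml LIF. Chondrocyte cultures at 0.5% O2 spent 3 days in osteoblast differentiation medium and then 7 days as micromasses on matrigel-coated plastic in alpha-MEM with 5% FCS, Insulin-Transferrin-Selenium, 0.1 µM dexamethasone, 10 ng/ml TGF-beta3 and 50 ng/ml BMP-2. The groups therefore differ in basal medium, serum, growth factors, glucocorticoid, matrix coating and culture form at once, and none of these can be told apart here. Other groups enter only where a difference from them is tested: the same 2 kinds of culture at 21% O2 (4 libraries each) and osteoblast cultures at 0.5% O2 (3 libraries, 10 days in osteoblast differentiation medium with 10% FCS, beta-glycerophosphate, 0.1 µM dexamethasone and 100 ng/ml BMP-2). The labels do not say whether replicates came from separate cultures, so p-values measure the spread between these libraries, which may be technical. Nor do they give the time that proliferating cells had spent at 0.5% O2.

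Cartilage forms when mesenchymal cells condense, switch on the transcription factor Sox9 with its partners Sox5 and Sox6, and secrete a matrix of type II, IX and XI collagen and the proteoglycan aggrecan. Chondrocytes that mature further become hypertrophic, make type X collagen and take on part of the osteoblast programme, while fibrous tissues and bone rest on type I collagen. Oxygen bears on this matrix directly, because the prolyl and lysyl hydroxylases of collagen synthesis use oxygen, as do the enzymes that mark hypoxia-inducible factor (HIF) for degradation.

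Library totals were 27811612 to 34444072 counts in the chondrocyte group and 23894399 to 26680081 in the proliferating group. Log levels of libraries within a group correlated across genes at 0.9918 to 0.9946 in chondrocyte and 0.9957 to 0.9970 in proliferating cultures. Collagen genes took 12.3% ± 0.551 (SD, n = 3) of all counts in chondrocyte libraries and 1.67% ± 0.0153 (SD, n = 3) in proliferating ones. Chondrocyte replicate 1 stood apart in some programmes: it held the highest chondrocyte value for 18 of 18 glucocorticoid targets tested and 72 of 80 ribosomal protein genes, and the lowest for 30 of 37 mitosis genes and 14 of 18 osteoblast genes. Over all genes tested it was highest for 34.8% and lowest for 36.7%. Without that library, the counts of members called higher or lower moved by at most 2 in any list but the ribosomal one, where 61 of 80 fell in place of 50. Levels below are CPM (counts per 1e+06 counts of the library) scaled for library composition over the 6 libraries, given for replicates 1, 2 and 3 in that order. In bulk RNA, fewer cells of a type and less RNA per cell cannot be told apart.

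Of 14347 genes tested with edgeR's quasi-likelihood test, 9975 (69.5%) passed a Benjamini-Hochberg adjusted p of 0.05. Of all genes tested, 34.9% (5005) rose and 34.6% (4970) fell in chondrocyte cultures. A change of at least 1 on the log2 scale was called upwards for 2229 genes (15.5%) and downwards for 2338 (16.3%). With 69.5% of genes called, a list in which most members pass is near the background, and lists are described by direction and by their median log2 fold change, against a median of -0.02 over all genes tested. Calls split evenly under composition scaling, with 50.2% upwards. Scaling by library size alone put 31.8% upwards and moved the median of all genes to -0.35. A log2 fold change of at least 5 (32-fold) was called for 319 genes upwards and 227 downwards.

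**Figure D1:**
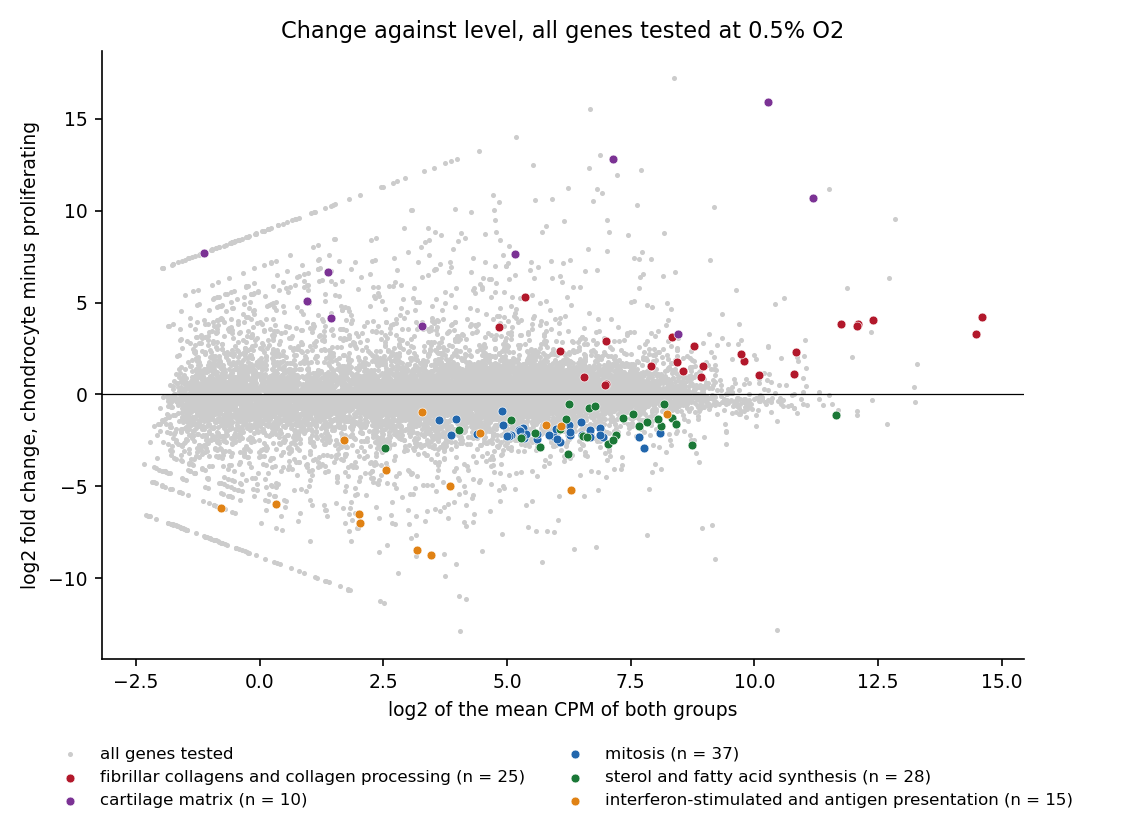
Log2 fold change (chondrocyte minus proliferating, y axis) against the log2 of the mean CPM of both groups (x axis) for every gene tested, with members of 5 lists in colour. All 25 fibrillar collagen and collagen processing genes and the 10 cartilage matrix genes tested lie above 0, and the 37 mitosis, 28 sterol and 15 interferon genes lie below it.

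Both genes given as markers of the chondrocyte change rose, and they were the largest rises among genes with at least 10 mean counts in each group. Tnn (tenascin N, chr1:160085029-160153580, minus strand, mm10) encodes a matrix glycoprotein of bone, periodontal ligament and other dense connective tissue. SEs here are those implied by the F statistic. Its level was 4986, 6476 and 6037 CPM in chondrocyte libraries and 2.11, 3.32 and 2.15 CPM in proliferating ones, a log2 fold change of 11.18 (SE 0.20, adjusted p = 2.04e-10). Col11a1 (chr3:114030540-114220718, plus strand) encodes a chain of type XI collagen, which nucleates the thin fibrils of cartilage. It stood at 4916, 4484 and 4593 CPM against 3.01, 2.57 and 2.95 CPM, a log2 fold change of 10.67 (SE 0.10, adjusted p = 8.34e-16). The other largest rises were Itga11, Postn, Gpx3, Lrrc75b, Prelp, Smoc2, Lgr6, Whrn, Col7a1 and Hapln1. Itga11, a collagen-binding integrin chain, rose from between 0.809 and 1.1 CPM to between 1136 and 1224 CPM. Postn, periostin of periosteum and ligament, was at 15005, 15007 and 13842 CPM against 17.3, 18.6 and 22.1 CPM. None of these 12 genes overlapped between the groups, which their rule of choice required.

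**Figure D2:**
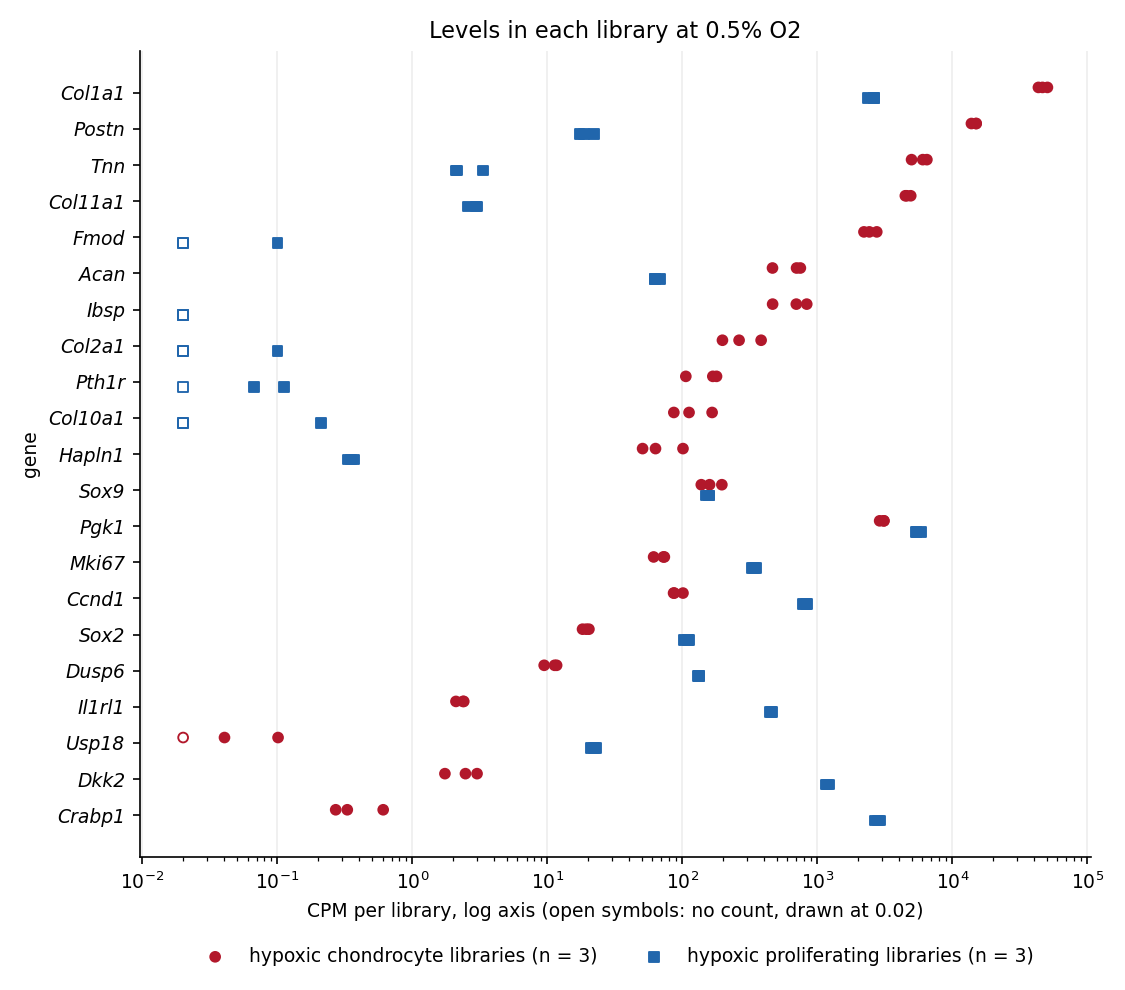
CPM on a log axis in each of the 3 chondrocyte and 3 proliferating libraries for 21 genes of the text; open symbols are libraries without a count, drawn at 0.02. Sox9 is the single gene drawn whose groups overlap, and collagen X, collagen II, Ibsp and Fmod pass from under 0.3 CPM to over 80 CPM.

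Of the 21 cartilage matrix genes listed, 10 could be tested and 10 of 10 rose, with a median log2 fold change of 7.15 (5.88 with Col9a2, which had no count in proliferating libraries, put at its lower bound). In the fit on all 28 libraries the call of Col9a2 was lost (7.73, adjusted p = 0.0638). Most of these passed the filter on low counts through the chondrocyte group alone, which fixes their direction. With at least 10 counts required in every library, 3 were tested, 3 rose and the median was 3.72. Col2a1 (chr15:97975602-98004695, minus strand), the type II collagen that makes up most cartilage fibrils, stood at 198, 263 and 383 CPM in chondrocyte libraries. Its 3 counts in all proliferating libraries together gave 0.1, 0 and 0 CPM, and the ratio of the groups was 7992 (95% counting interval 2734 to 38755; adjusted p = 3.45e-05). All chondrocyte libraries were far above all proliferating ones, with replicate 1 the lowest. Acan, the aggrecan core protein, was already present in proliferating cells at 68.1, 62.3 and 62.9 CPM and reached 465, 701 and 748 CPM, a log2 fold change of 3.31 (SE 0.20, adjusted p = 8.63e-06). Hapln1, the link protein that ties aggrecan to hyaluronan, rose from between 0.335 and 0.368 CPM to 50.7, 63.2 and 101 CPM in replicates 1, 2 and 3. Fmod (fibromodulin), a small leucine-rich proteoglycan that binds collagen fibrils, was at 2213, 2754 and 2426 CPM against 0.1, 0 and 0 CPM. Col11a2 rose to 12.1, 16 and 26 CPM from between 1.01 and 1.54 CPM.

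The other 11 cartilage matrix genes stayed under the filter on low counts. Matn1, Cnmd, Epyc, Snorc and Ucma, which mark mature or growth-plate cartilage, had no count in any of the 6 libraries, which allows at most 0.0354 CPM over the 3 chondrocyte libraries (3 counts on the composition-scaled level, counting error only). Col9a1 and Col9a3, chains of the type IX collagen that coats type II fibrils, held 13 and 34 counts over the 3 chondrocyte libraries. Matn3 held 26 counts and Matn4 held 30. The label of the cultures was thus met by part of the cartilage matrix list, while the matrilins and type IX collagen were at or below 0.917 CPM on average.

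Set per kilobase of exonic sequence, type I collagen led the matrix genes of the chondrocyte libraries. Col1a1 reached 7139 CPM per kilobase and Col1a2 reached 3327. On that scale Postn stood at 1680, Tnn at 1003, Col3a1 at 828, Fmod at 745, Col11a1 at 366, Ibsp at 322, Acan at 85.4, Col10a1 at 38.8 and Col2a1 at 30.4. The cartilage fibril collagen Col2a1 was therefore the lowest of these 11 genes by level, although its ratio to proliferating cells was among the largest.

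Chondrogenic regulators moved less than the matrix: 7 of 12 tested rose, 2 fell and 3 were not called, with a median of 0.72 (0.34 over the 9 genes with at least 10 counts in every library). Sox9, the transcription factor that starts chondrogenesis, was at 196, 138 and 159 CPM in chondrocyte and 157, 158 and 148 CPM in proliferating libraries. The ranges overlapped and the log2 difference was 0.09 (SE 0.11, adjusted p = 0.476). Without chondrocyte replicate 2 it was 0.21 and called (adjusted p = 0.0477). Its partner Sox5 rose from between 3.17 and 3.87 CPM to between 10.8 and 16.2 CPM (log2 fold change 1.85, SE 0.18), and Sox6 was under the filter. Nkx3-2, a repressor that holds chondrocytes in the immature state, had no count in proliferating libraries and 1.31, 3.44 and 1.62 CPM in chondrocyte libraries, at least 58-fold higher (3 counts over the group as the floor). Barx1, a homeobox gene of jaw mesenchyme, differed by -0.30 (SE 0.15, adjusted p = 0.0887), and by -0.46 without chondrocyte replicate 2 (adjusted p = 0.0145) and -0.64 under library size alone (adjusted p = 0.0018). Pthlh, the secreted peptide that delays hypertrophy, fell from between 37.6 and 43.2 CPM to between 3.12 and 4.65 CPM.

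Hypertrophy genes rose in 10 of 12 cases tested (median 1.85), and 14 of 18 osteoblast and mineralisation genes rose (median 2.11). With at least 10 counts required in every library, 5 of 7 hypertrophy genes (median 0.74) and 7 of 10 osteoblast genes (median 1.19) rose. Col10a1, the collagen of hypertrophic cartilage, was at 86.4, 112 and 166 CPM against 0, 0 and 0.211 CPM, with 6 counts over the proliferating group. Pth1r, the receptor for parathyroid hormone and its relative Pthlh, rose from at most 0.112 CPM to 106, 168 and 179 CPM. Ibsp (bone sialoprotein, chr5:104299171-104311469, plus strand), which nucleates mineral, had no count in proliferating libraries and 466, 698 and 834 CPM in chondrocyte ones, at least 18809-fold higher (adjusted p = 0.00106). Sp7, the osterix transcription factor of osteoblasts, stood at 170.1, 289 and 265 CPM against 0.201, 0.0745 and 0.0703 CPM (log2 fold change 10.95, SE 0.44). Alpl, the alkaline phosphatase of mineralising cells, was at 67.4, 90.9 and 117 CPM with a single count in the proliferating group. Runx2, the master regulator of osteoblasts, was already at 47 to 48 CPM in proliferating cells and rose by 0.83 (SE 0.07). Mmp13, the collagenase of late hypertrophy, remained between 0.969 and 2.16 CPM in all 6 libraries (log2 difference -0.06, SE 0.36, adjusted p = 0.888). Spp1 (osteopontin) fell by 0.65 on the log2 scale and Phex, an endopeptidase of phosphate control, by 4.94. Ank, a pyrophosphate transporter, was the third osteoblast gene that fell (by 0.37), and was named after its value was seen. The late osteoblast gene Bglap held 1 count in the chondrocyte group.

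Genes of collagen synthesis rose together: 25 of 25 fibrillar collagen and collagen processing genes rose (median 2.29), and the 16 tendon and fibrous matrix genes tested rose too (median 2.36). Of the latter, 1 had no count in proliferating libraries and passed the filter through the chondrocyte group alone, which fixes its direction. The median was 2.36 with it at its bound. Col1a1 stood at 43401, 50620 and 46535 CPM against 2630, 2612 and 2372 CPM, a log2 fold change of 4.21 (SE 0.08, adjusted p = 2.40e-13). Col1a2 rose by 3.27, Col3a1 by 3.84 and Col5a1 by 4.04, each with an SE of at most 0.07. P4ha3, a prolyl 4-hydroxylase subunit, was the largest rise among the processing genes, from between 1.71 and 2.15 CPM to between 76.8 and 84.5 CPM. Loxl4, a lysyl oxidase, was the smallest, at 172, 134 and 139 CPM against 106, 104 and 99.4 CPM. It was the one of the 25 not called under scaling by library size alone (adjusted p = 0.0544). Lox, which crosslinks collagen, was among the 10 most abundant genes at 9145, 7352 and 7407 CPM. Tnc, tenascin C, rose by 1.41 and Scx, the tendon transcription factor scleraxis, by 1.68. Thbs1 and Sparc, matricellular proteins, rose by 6.32 and 3.40.

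Basement membrane and elastic fibre genes split, with 9 of 19 higher, 8 lower and a median of 0.07. Col4a1 fell from between 1654 and 1802 CPM to 989, 770.3 and 871 CPM, and its partner Col4a2 fell by 0.57. The laminin chains Lamb1 and Lamc1 fell by 1.44 and 0.61. Mfap5, a microfibril protein, rose by 5.97, and Efemp1, a fibulin, fell by 4.05. Among hyaluronan and chondroitin sulphate genes 10 of 19 rose and 7 fell. Papss2, which makes the sulphate donor for proteoglycans, rose from between 3.5 and 3.8 CPM to 152, 139 and 142 CPM (log2 fold change 5.30, SE 0.08). Vcan (versican) rose by 2.94 and Has2, a hyaluronan synthase, by 1.82, while Has3 fell by 2.74. Of 16 matrix proteases and inhibitors tested 11 rose, with Adamts12 the largest (4.76) and Mmp2 at 2.14. Mmp3 (stromelysin) was at 30.7, 30.9 and 35.7 CPM in proliferating libraries and had 1 count in all chondrocyte libraries, a ratio of 2750 (95% counting interval 493 to 108652).

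Among genes with at least 10 mean counts in each group, the largest falls were led by a retinoid binding gene. Crabp1 (chr9:54764748-54773110, plus strand), a cellular retinoic acid binding protein of migrating neural crest, was at 2912, 2828 and 2682 CPM in proliferating and 0.329, 0.607 and 0.27 CPM in chondrocyte libraries, a log2 fold change of -12.80 (SE 0.15, adjusted p = 2.52e-15). Dkk2, a secreted Wnt antagonist, stood at 1174, 1150 and 1230 CPM against 2.47, 1.74 and 3.01 CPM (log2 fold change -8.93, SE 0.14). Slc14a1, Gap43, Il1rl1, Upp1, Ramp3, Nptx1, Arhgap22 and Gchfr were also among the 12 largest falls, between -8.43 and -6.49. Il1rl1, the receptor for interleukin 33, fell from between 445 and 462 CPM to between 2.1 and 2.4 CPM. Hmga1, a chromatin architecture factor, fell by 7.26, but it and the listed Hmga1b may share reads and their separate values are uncertain. Fstl4, Btn1a1, Crhr1, Tac1 and Cacna1i had at most 3 counts in all chondrocyte libraries, against 38, 36.8 and 33.2 CPM for Fstl4, the highest of them.

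Neural crest regulators formed a smaller set of calls. Of 10 tested, 4 rose, 1 fell and 5 were not called, and the crest specifier genes Sox10 and Foxd3 had no count in either group. Twist1 was at 63, 72.7 and 63.9 CPM against 76, 78.5 and 69.8 CPM (log2 difference -0.17, SE 0.07, adjusted p = 0.0599), a value that was called without chondrocyte replicate 2 (-0.23) or proliferating replicate 3 (-0.22). It was also called under library size alone (-0.50, adjusted p = 4.80e-05), with no filter on low counts (0.043) and with at least 10 counts in every library (0.0484). Its relative Twist2 fell by 4.68. Snai1 and Snai2, repressors of epithelial genes, each rose by 1.66. Scaling by library size alone turned this list to 3 higher and 4 lower, and median-of-ratios scaling gave 6 higher and 1 lower. Craniofacial homeobox genes rose in 10 of 12 cases, and in 6 of 8 with at least 10 counts in every library: Dlx5, a jaw patterning gene that also acts in bone, went from at most 0.112 CPM to 8.18, 11.1 and 10.8 CPM, and Dlx1 and Dlx2 rose by 0.38 and 0.50, calls that were lost under scaling by library size alone (0.05 and 0.17). The call of Dlx2 was also lost in the fit on all 28 libraries (0.51, adjusted p = 0.0609). Prrx1, a mesenchymal homeobox gene, fell by 0.91. Sox2, the single tested gene of the pluripotent marker list, fell from 102, 112 and 110.0 CPM to 19.4, 18.2 and 20.3 CPM.

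Feedback genes of FGF signalling mostly fell. Of 25 FGF and ERK feedback genes tested 19 fell (median -2.36) in the cultures without added bFGF. Dusp6, a phosphatase that ERK induces, stood at 11.7, 11.3 and 9.46 CPM against 132, 132 and 131 CPM (log2 fold change -3.60, SE 0.08). Spry4, a feedback inhibitor of the pathway, fell by 4.97, the transcription factor Etv4 fell by 4.15 and Spry2 fell by 3.02. The receptor Fgfr3, which marks proliferating chondrocytes, rose from at most 0.176 CPM to 14.2, 20.8 and 29.7 CPM. Of 13 LIF and STAT3 genes 8 rose and 4 fell (median 0.91). The receptor Lifr rose by 3.28, the target Socs3 fell by 2.17 and Lif itself fell by 4.36. Of 15 AP-1 and growth factor response genes 10 fell, with Fosl1 at -3.82, and 3 rose.

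Of 19 TGF-beta ligands and targets 13 rose and 4 fell (median 1.72). Ccn2, a matricellular target, stood at 2996, 2501 and 2390 CPM against 95.8, 89.7 and 75 CPM (log2 fold change 4.92, SE 0.12). Pmepa1, a feedback inhibitor, rose by 6.38, and the co-receptor Tgfbr3 fell by 3.55. BMP targets and antagonists rose in 16 of 21 cases (median 2.32), and in 9 of 13 with at least 10 counts in every library (median 1.43). Id3, a direct BMP target, stood at 303, 396 and 395 CPM against 72.7, 78.4 and 68.7 CPM, and Id1 and Id2 rose by 0.63 and 2.73. Hey1 rose from at most 0.1 CPM to between 48.1 and 59.4 CPM. Id4 fell by 1.16.

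Glucocorticoid targets rose in 11 of 18 cases and fell in 5 (median 1.19) in the cultures with dexamethasone. Fkbp5, a chaperone that the receptor induces, was at 531, 383 and 394 CPM against 44.3, 42.9 and 43.2 CPM (log2 fold change 3.33, SE 0.13). Tsc22d3 rose by 3.46 and Per1 by 1.82. Zbtb16 had no count in proliferating libraries and 52.6, 17.8 and 17.5 CPM in chondrocyte ones, at least 857-fold higher (adjusted p = 0.0264). Hif3a was at 33.9, 13.9 and 12.6 CPM with no count in proliferating cells, at least 585-fold higher. For both, chondrocyte replicate 1 was the highest library by over 2-fold. Without chondrocyte replicate 2 or 3 the call of Zbtb16 was lost (adjusted p = 0.0892 and 0.0736), and without the filter on low counts both calls were (0.0644 and 0.0528).

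Wnt genes moved in both directions. Ligands and targets rose in 10 of 12 cases (median 2.27), among them the receptor Lgr6 at 138, 229 and 231 CPM against 0.903, 1.08 and 0.492 CPM. Axin2, a feedback target, remained under 1.1 CPM in every library although it rose by 2.30 (SE 0.55). It had 14 counts in all proliferating libraries together, and 1 other tested member of this list had none. Both passed the filter through the chondrocyte group alone, which fixes their direction. Of the inhibitors 3 rose and 3 fell: Wif1 by 9.49, Notum by 3.82 and Frzb by 8.82 (named after its value was seen) upwards, and Dkk2, Dkk3 and Sfrp1 downwards, the last by 3.36. Wif1 and Frzb, with 6 and 4 counts in all proliferating libraries together, passed the filter through the chondrocyte group alone. With at least 10 counts in every library 4 inhibitors were tested, 1 was higher and 3 were lower, and the median went from 1.06 to -2.54. In the Notch and Hedgehog list Jag1 rose by 2.75 and Notch2 by 1.09, while Notch1 fell from between 44.6 and 50.1 CPM to between 2.14 and 4.9 CPM. Hhip, a Hedgehog target, fell by 6.53. Igf1 rose from at most 0.261 CPM to 54.9, 61.4 and 58 CPM, and Igfbp3 fell by 3.35.

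**Figure D3:**
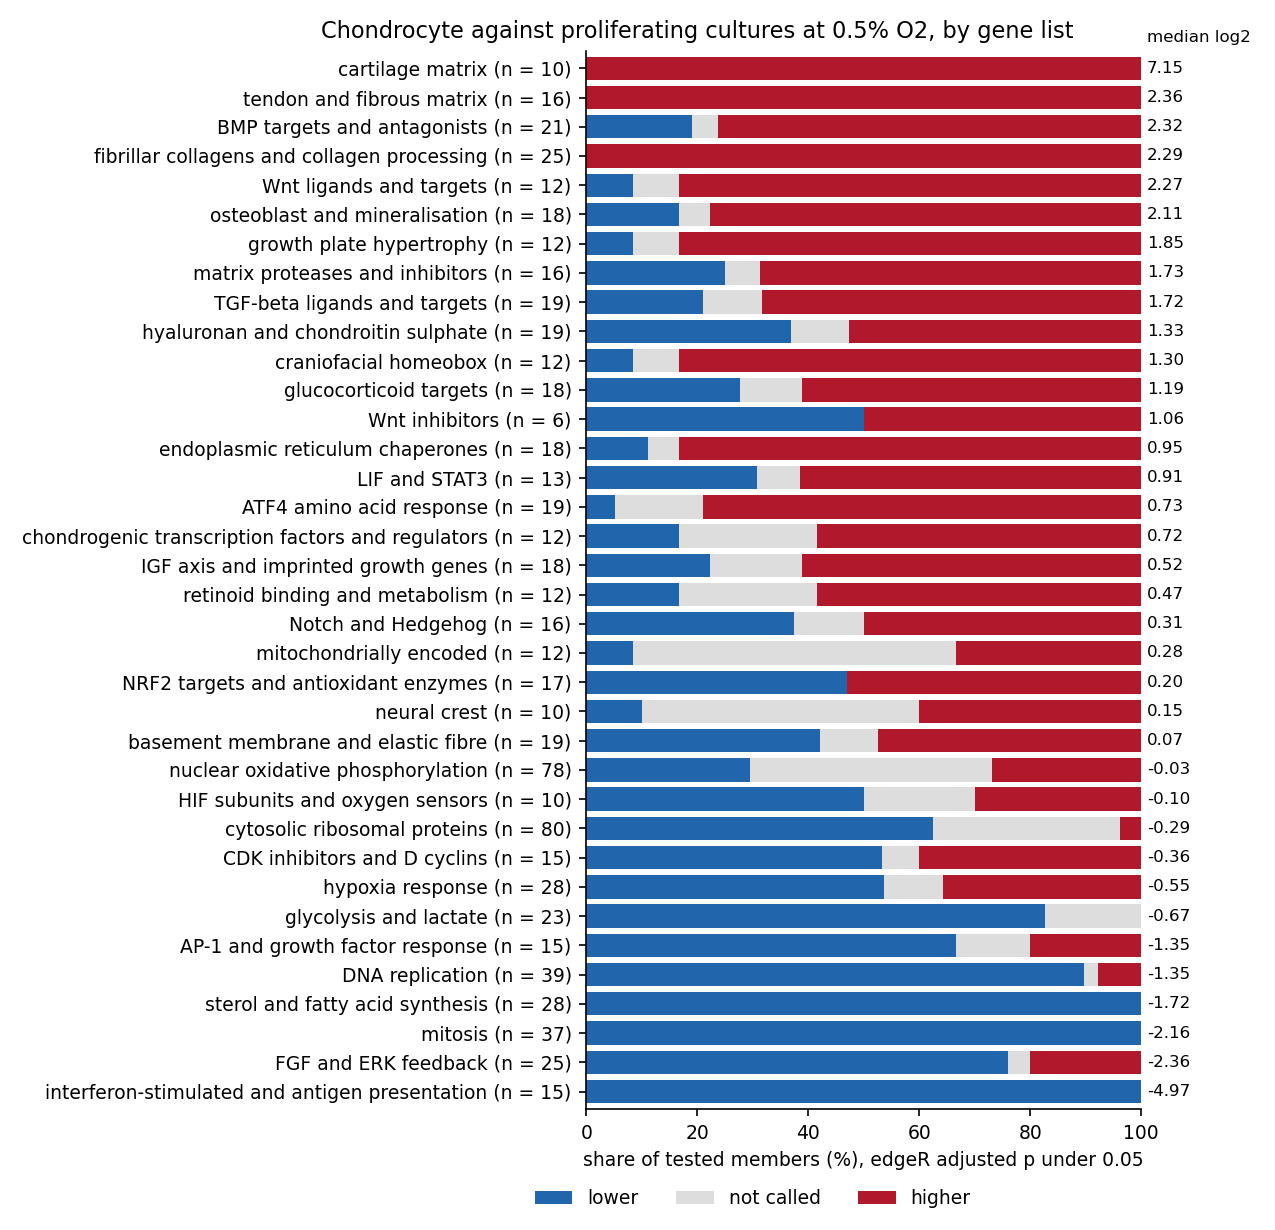
Share of tested members (x axis, percent) called higher, not called or lower in chondrocyte cultures for 36 gene lists, ordered by the median log2 fold change printed at the right. Cartilage matrix (median 7.15), tendon and collagen lists hold higher calls alone, and mitosis, sterol and interferon lists (medians -2.16, -1.72 and -4.97) hold lower calls alone.

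Cell cycle genes fell together. All 37 mitosis genes were called lower (median -2.16) and 35 of 39 DNA replication genes were (median -1.35), against 34.6% of all genes. Mki67, a nuclear protein of cycling cells, was at 61.2, 73.5 and 72.2 CPM against 327, 337 and 351 CPM (log2 fold change -2.29, SE 0.08, adjusted p = 1.91e-11). Top2a fell by 2.08, Cdk1 by 1.64 and Ccnb1 by 1.81. The fall ranged from 0.92 for Mad2l1, a spindle checkpoint gene, to 2.89 for Anln, an actin-binding protein of cytokinesis. Rrm2, a subunit of the oxygen-using ribonucleotide reductase, went the other way, at 109.7, 113 and 106 CPM against 46.3, 44.7 and 39 CPM (log2 fold change 1.33, SE 0.07). Ccne1 (0.74) and Ccne2 (0.43), the cyclins of S-phase entry, also rose, and were named after their values were seen. Neither was called under scaling by library size alone, and Ccne2 was not in the fit on all 28 libraries (0.43, adjusted p = 0.238). Uhrf1, which maintains DNA methylation at replication, fell by 2.75. Ccnd1, the D cyclin that growth factors induce, fell from between 784 and 833 CPM to between 86 and 101 CPM, while Ccnd2 rose by 2.37. The cell cycle inhibitors Cdkn1a and Cdkn1c rose by 0.45 and 1.22, the former to 0.12 and uncalled under library size scaling.

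Promoters of the mitosis genes share short elements, and those of 4 genes that fell are shown for that reason. In RefSeq promoter windows (GRCm38.p6, the assembly behind mm10; 250 bases before to 50 after the start), 31 of 37 mitosis genes had 33 windows. TTTGAA, the core of the cell cycle homology region, was found on either strand in 24 of these windows (72.7%) and in 17.9% of all 32851 windows. CCAAT was found in 25 (75.8%), against 37.4% of all. The stretches below lie upstream of the start and read 5′ to 3′ along the gene, with matches to TTTGAA or CCAAT, or to their reverse complements TTCAAA and ATTGG, in capitals. No TTTGAA match overlaps a CCAAT match in them.
Cdk1 (chr10:69352913-69353042, minus strand): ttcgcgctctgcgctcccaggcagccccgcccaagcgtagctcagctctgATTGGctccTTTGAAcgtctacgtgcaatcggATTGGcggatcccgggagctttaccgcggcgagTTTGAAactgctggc
Mki67 (chr7:135716457-135716582, minus strand): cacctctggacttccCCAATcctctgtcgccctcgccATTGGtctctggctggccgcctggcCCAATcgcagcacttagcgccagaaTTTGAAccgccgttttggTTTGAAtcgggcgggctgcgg
Top2a (chr11:99024192-99024321, minus strand): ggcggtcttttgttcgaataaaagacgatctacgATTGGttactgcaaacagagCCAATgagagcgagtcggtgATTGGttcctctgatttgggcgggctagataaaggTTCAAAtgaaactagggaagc
Cdc20 (chr4:118437344-118437411, minus strand): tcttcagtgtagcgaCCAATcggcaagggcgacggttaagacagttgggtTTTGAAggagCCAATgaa
The E2F site TTTGGCGC was in 5 of 37 windows of DNA replication genes (13.5%) and in 0.514% of all windows, and TTTCCCGC was in 6 (16.2%) against 1.07%. These matches describe the sequence and say nothing of what is bound there.

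Interferon-stimulated and antigen presentation genes were lower in all 15 of the 18 listed that could be tested, with a median of -4.97. Several of them passed the filter on low counts through the proliferating group alone, which fixes their direction. With at least 10 counts required in every library, 8 were tested, 8 fell and the median was -1.89. Usp18, which damps interferon signalling, was at 22.2, 23 and 21.1 CPM in proliferating and 0, 0.0405 and 0.101 CPM in chondrocyte libraries (log2 fold change -8.74, SE 0.29). Isg15 fell from between 7 and 9.13 CPM to at most 0.164 CPM, Ifit1 from between 7.72 and 8.37 CPM to at most 0.164 CPM, and Irf7 by 4.97. The interferon-stimulated response element, a repeat of GAAA with 2 free bases between, was found on either strand in 6 of 14 windows of the genes that fell (42.9%), 8 of 17 over the whole list (47.1%), and in 3.44% of all windows. It is shown in capitals for the pair of genes below, and as its reverse complement, built on TTTC, where it reads on the other strand. The matches of Isg15 overlap one another.
Isg15 (chr4:156200860-156200911, minus strand): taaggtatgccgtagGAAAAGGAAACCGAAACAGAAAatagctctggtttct
Ifit1 (chr19:34640770-34640828, plus strand): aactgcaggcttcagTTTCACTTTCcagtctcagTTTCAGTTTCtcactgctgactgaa
Markers of leukocytes moved with this list: their summed level was 3.75 to 5.06 CPM in chondrocyte and 14.3 to 15.8 CPM in proliferating libraries. Of 3 tested, Cd68 and Cd14 fell (-3.47 and -2.50) and Csf1r rose (2.98), while 4 of 8, Adgre1 and Itgam among them, had no count in either group. Their part in the result was not tested.

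Sterol and fatty acid synthesis genes fell in 28 of 28 cases (median -1.72). Hmgcs1, an early enzyme of the mevalonate pathway, was at 138, 129 and 122 CPM against 419.8, 415 and 438 CPM (log2 fold change -1.71, SE 0.06). Sqle, which uses oxygen to form squalene epoxide, fell by 1.36 and Idi1, an isomerase of the pathway, fell by 3.26. Acaca, the carboxylase that commits carbon to fatty acids, showed the smallest fall, 0.52. The short element CACNCCAC of sterol-responsive promoters was in 2 of 22 windows of these genes (9.09%), near its share of all windows (6.24%). One of them is Hmgcs1, shown with the match in capitals.
Hmgcs1 (chr13:119690200-119690237, plus strand): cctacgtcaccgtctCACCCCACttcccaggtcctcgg

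Genes of the hypoxia response were expressed in both groups and moved in both directions. Of 28 tested, 10 rose, 15 fell and 3 were not called (median -0.55), and 19 of 23 glycolysis and lactate genes fell with none higher (median -0.67). Vegfa, the angiogenic factor, was at 469, 505 and 525 CPM against 299.9, 295 and 299 CPM (log2 fold change 0.74, SE 0.06). Plod2, a collagen lysyl hydroxylase that HIF induces, rose most, to 1261, 1492 and 1441 CPM from 298, 295 and 330.5 CPM (2.18, SE 0.08). Pgk1 of glycolysis fell from 5390, 5434 and 5904 CPM to 3114, 2893 and 3101 CPM (-0.88, SE 0.06), and Pkm by 1.13. Aldoc fell most among glycolysis genes, from between 218 and 245 CPM to between 21.7 and 26.9 CPM. The glucose transporter Slc2a1 fell by 0.81 and Pdk1, which diverts pyruvate from mitochondria, by 0.76. Gapdh ranged from 33.3 to 529.7 CPM among chondrocyte libraries and from 173 to 446 CPM among proliferating ones, and its counts are uncertain because near-identical copies lie elsewhere in the genome. Hif1a was not called, at 229, 218 and 206 CPM against 208, 208 and 227 CPM (log2 difference 0.02, SE 0.06, adjusted p = 0.812). Scaling by library size alone put it at -0.31 and called it lower (adjusted p = 4.74e-04). The core hypoxia element ACGTG was in 17 of 31 windows of hypoxia response genes (54.8%) and 16 of 34 of glycolysis genes (47.1%), against 19.6% of all. Pgk1 carries it on both strands in the stretch shown, as ACGTG and CACGT.
Pgk1 (chrX:106186935-106186988, plus strand): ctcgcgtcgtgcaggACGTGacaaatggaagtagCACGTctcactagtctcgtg

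Secretory and amino acid genes rose while ribosomal genes fell slightly. Of 18 endoplasmic reticulum chaperones 15 rose (median 0.95): Hspa5 (BiP) was at 1359, 1335 and 1480 CPM against 749.6, 739.9 and 858 CPM, and Hyou1 rose most, by 2.07. Hsp90b1 and Sdf2l1 fell by 0.32 and 0.35, and the call of Sdf2l1 was lost without any one of proliferating replicate 1 or 2 or chondrocyte replicate 2 or 3 (-0.37 to -0.26), and in the fit on all 28 libraries (-0.34, adjusted p = 0.201). Of 19 genes of the ATF4 amino acid response 15 rose (median 0.73), with Nupr1 at 2.19, Trib3 at 1.49 and Asns at 0.71, and Psat1 of serine synthesis fell by 2.50. Cytosolic ribosomal protein genes fell in 50 of 80 cases and rose in 3 (median -0.29). Library size scaling put 74 of the 80 lower. Many of them have near-identical copies, so single values are uncertain. Nuclear genes of oxidative phosphorylation were balanced, with 21 of 78 higher, 23 lower and a median of -0.03, although library size scaling put 7 higher and 48 lower.

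Markers of other cell types were checked in the same libraries. Skeletal muscle markers had no count in either group for 6 of 7 genes, Myod1 among them, and Acta1 alone was tested and rose by 3.85. Endothelial markers summed to 5.59 to 7.87 CPM in chondrocyte and 0.708 to 1.2 CPM in proliferating libraries. Pecam1, the single one tested, rose by 2.82, and Cdh5 was at 0 in chondrocyte libraries. Adipocyte markers summed to 15.5 to 24 CPM against 6.4 to 7.99 CPM, the 4 tested rose (median 1.46), and Adipoq was at 0. Smooth muscle genes were abundant: 9 of 12 rose (median 3.18), and their summed level was 4477 to 5325 CPM against 1405 to 1520 CPM. Synpo2 fell by 1.49 and 2 were not called. Some members held under 10 counts in a library, and leaving them out lowered this median (value given at the end). Acta2, smooth muscle actin, which myofibroblasts also express, was at 1748, 1409 and 1483 CPM against 31.9, 33.2 and 25.7 CPM, and Tagln rose by 5.05. The neuronal list rose through Tubb3, Stmn2 and Map2 (Map2 at 226, 152 and 185 CPM against 1.7, 1.68 and 1.9 CPM), while its other members were under the filter. Epithelial markers summed to 6.84 to 11.9 CPM against 1.08 to 2.04 CPM. Of 2 tested, Krt14 rose by 7.24 and Krt18 fell. Krt18 had no count in chondrocyte libraries, so its fitted change of -6.75 depends on the prior count. With Krt18 at its bound the median of the pair went from 0.25 to 1.75. In all, 4 of 8, Cdh1 among them, were at 0 in chondrocyte libraries. Schwann cell and glial markers summed to 7.4 to 9.3 CPM against 10.5 to 12.4 CPM; Erbb3 fell by 6.47 and S100b by 3.02. Melanocyte markers summed to 6.79 to 10.1 CPM against 2.51 to 3.5 CPM, where Mitf rose by 1.65 and Tyr, Tyrp1 and Dct were at 0. The part of these markers in the other results was not tested. The summed smooth muscle level moves with the rise of the collagen lists, and its part in that rise was not tested.

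At 21% O2 the same step could be set against the one at 0.5% O2 with an interaction term (the change at 0.5% minus the change at 21%, log2). Levels from here on are scaled over all 28 libraries. The term was called for 6654 of 15310 genes (43.5%), 21.6% positive and 21.9% negative, with a median of -0.03. Hypoxia response genes had a negative term in 24 of 28 cases and a positive one in none (median -1.85), and glycolysis genes had a negative one in 18 of 23 cases. Pgk1 overlapped between the groups at 21% O2, where it stood at 827 to 888 CPM in proliferating and 754 to 1081 CPM in chondrocyte libraries, and at 0.5% O2 it was at 5409 ± 293 (SD, n = 3) and 2962 ± 127 (SD, n = 3), a term of -0.98 (SE 0.13, adjusted p = 6.63e-06). Plod2 rose at both levels, from 21 to 22.1 CPM up to 497 to 622 CPM at 21% O2, and by less at 0.5% O2 (term -2.63, SE 0.12). Among genes with at least 10 mean counts in every group, the imprinted RNA H19 held the most negative term, -8.28 (SE 0.26): it went from 2.21 to 3.35 CPM up to 671 to 867 CPM at 21% O2, and was at 29.8 ± 1.13 and 26.3 ± 8.01 CPM (SD, n = 3) at 0.5% O2. Under the same limit on counts Mgarp, Itm2a, Smtnl2 and Vwa1 followed, from -5.95 to -5.28.

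Among cartilage genes the term was negative where it was called, in 3 of 10 genes: Acan at -3.24 (SE 0.29), Col11a2 at -4.98 (SE 1.56) and Hapln1 at -5.30 (SE 1.80). Under limma-voom Col11a2 and Hapln1 were not called (adjusted p = 0.314 and 0.264), while Acan was, and without the filter on low counts Hapln1 was not (0.0571). The call of Col11a2 was also lost without hypoxic proliferating replicate 1 (-4.88) or 3 (-4.89). That of Hapln1 was also lost without any one of hypoxic proliferating replicates 1 to 3, normoxic proliferating replicates 1, 2 or 4, normoxic chondrocyte replicate 4 or hypoxic chondrocyte replicate 2 (-5.40 to -4.86). Acan was at 1429 to 2546 CPM in chondrocyte libraries at 21% O2 and 622 ± 146 CPM (SD, n = 3) at 0.5% O2. Col2a1 ranged from 1039 to 5879 CPM at 21% O2 against 274 ± 90.4 CPM (SD, n = 3) at 0.5% O2, but its term of -5.01 had an SE of 7.20, since proliferating cells held hardly any count, and was not called (adjusted p = 0.622). DESeq2 put it at -5.16 and called it (adjusted p = 0.00567). Over 20 alternatives the term of Col2a1 ran from -7.03, without normoxic proliferating replicate 4, to -1.68, without hypoxic proliferating replicate 1 (adjusted p = 0.64 and 0.986). Col11a1 had a term of -0.15 (SE 0.51, adjusted p = 0.852), which became -0.71 (adjusted p = 0.00568) without normoxic proliferating replicate 4, and Tnn had one of 1.03 (SE 0.23, adjusted p = 0.00155). DNA replication genes leaned the other way, with 17 of 39 positive and 1 negative. Rrm2 had a term of 1.66 (SE 0.16): in proliferating cells it was at 136 to 169 CPM at 21% O2 and 42.1 ± 3.67 CPM (SD, n = 3) at 0.5% O2. Under that limit on counts Notum, a Wnt-inactivating enzyme, held the most positive term, 3.91 (SE 0.38), and stood at 3.06 to 6.51 CPM in chondrocyte libraries at 21% O2 and 38.9 ± 8.96 CPM (SD, n = 3) at 0.5% O2. Tnfrsf21, Glipr1, Adra2a and S100a7a followed, from 3.49 to 2.89.

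**Figure D4:**
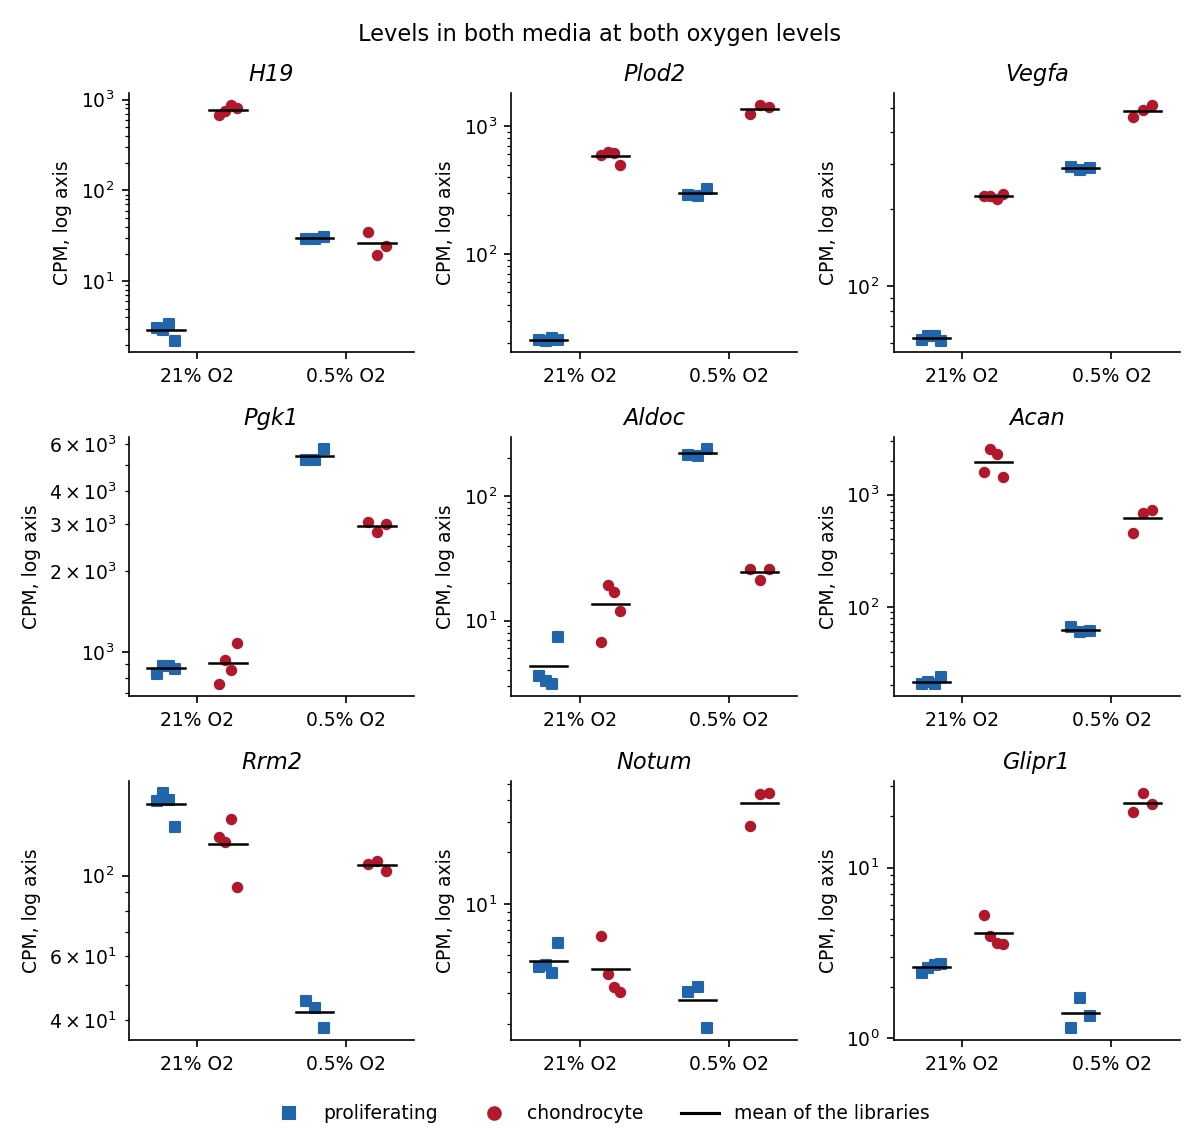
CPM on log axes, scaled over all 28 libraries, for 9 genes in proliferating (squares) and chondrocyte (circles) libraries at 21% and 0.5% O2, with lines at the means. H19 rises with chondrogenic culture at 21% O2 (term -8.28), while Notum and Glipr1 are highest in chondrocyte libraries at 0.5% O2.

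Osteoblast cultures at 0.5% O2 shared the first medium of the chondrocyte cultures, and 8137 of 14116 genes (57.6%) differed between them, 28.6% higher and 29% lower in chondrocyte cultures. Chondrocyte cultures held more of the cartilage matrix, with 8 of 10 genes higher and Col9a2 lower by 2.71, and more transcript of fibrillar collagen and collagen processing genes, with 19 of 25 higher (median 0.98). Chondrogenic regulators leaned the other way, with 3 of 12 higher and 7 lower (median -1.12), among them Sox5 at -2.08 (SE 0.14). Col11a1 was at 4550 ± 238 CPM (SD, n = 3) against 888 ± 14.7 CPM in osteoblast cultures, a log2 difference of 2.36 (SE 0.09, adjusted p = 4.56e-10). Tnn was 5688 ± 726 against 3899 ± 196 CPM (SD, n = 3), a difference of 0.55 (SE 0.11, adjusted p = 6.50e-04), so Tnn was high in both cultures. Klk4, a kallikrein protease of enamel matrix, was at 200.1 ± 53 CPM (SD, n = 3) in chondrocyte cultures and without a count in osteoblast cultures and in proliferating cells. Among genes with at least 10 mean counts in each group, Srpx2, Sp6, Nes, Il11 and Prss46 were the largest positive differences, from 6.53 to 5.47. Ibsp, the mineral nucleator, was higher too, at 649 ± 179 against 69.6 ± 6.21 CPM (SD, n = 3).

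Glucocorticoid targets were lower than in osteoblast cultures in 17 of 17 genes tested (median -2.72), with both media holding 0.1 µM dexamethasone. Fkbp5 was at 425 ± 82.2 CPM (SD, n = 3) against 1040 ± 35 CPM, and Zbtb16 at 28.6 ± 19.8 against 291 ± 10.8 CPM. Fmo1 and Fmo2, with Fam107a and Aldh1a7, were among the largest negative differences, from -7.78 to -6.45. Aldh1a7 stood at 3.27 ± 0.507 against 289 ± 19.4 CPM (SD, n = 3). Of 25 FGF and ERK feedback genes 20 were lower, and of 20 BMP targets and antagonists 13 were. Mitosis genes differed in 9 of 37 cases, 7 higher and 2 lower, with a median of 0.11. Sox9 was not called (-0.28, SE 0.12, adjusted p = 0.0655), but was called at -0.42 without chondrocyte replicate 1 (adjusted p = 0.00278), at -0.39 under library size alone (0.0119) and at -0.28 with no filter on low counts (0.00976). Because the proliferating libraries are shared, no overlap between the changes of chondrocyte and osteoblast cultures is given.

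**Figure D5:**
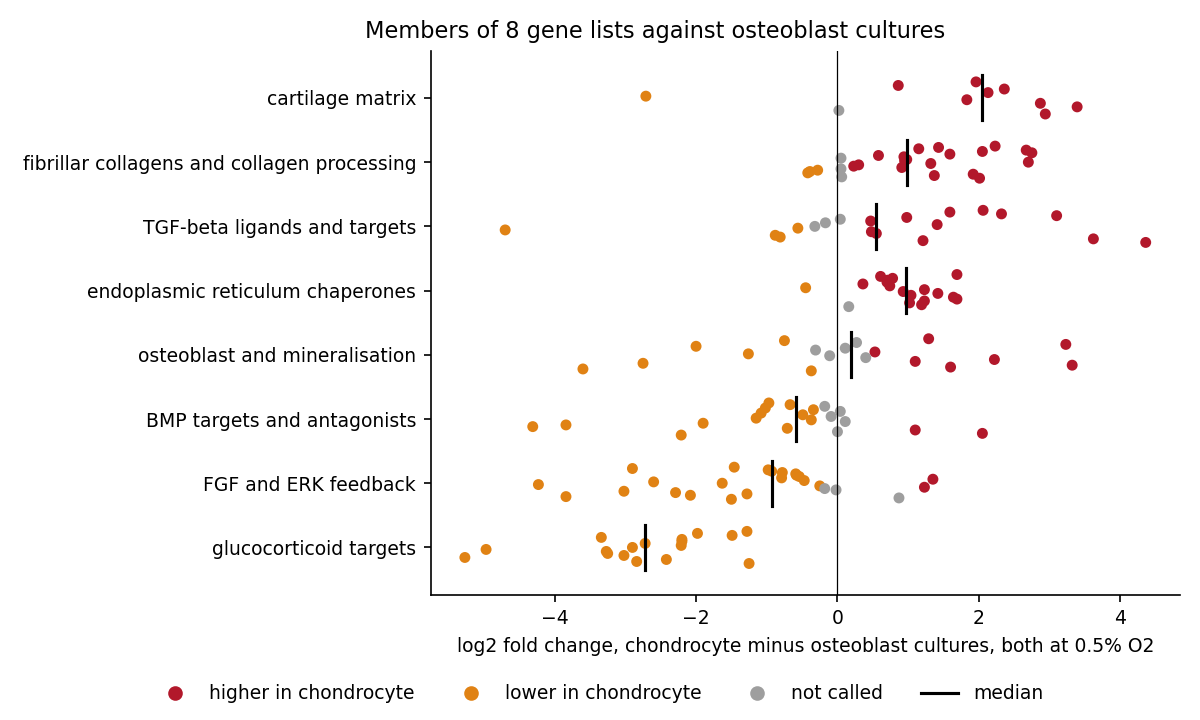
Log2 difference between chondrocyte and osteoblast cultures at 0.5% O2 (x axis) for the tested members of 8 lists, with black lines at the medians and colours for called genes. The median of cartilage matrix genes (8 of 10 higher, Col9a2 lower) is 2.04, and that of glucocorticoid targets (17 of 17 lower) is -2.72.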

How the data were processed

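RNA with poly(A) tails from O9-1 cultures was sequenced with a stranded kit, and the deposited table holds whole-number read counts per gene for 28 libraries. The authors' processing used HISAT2 2.0.5, StringTie 1.3.3b, featureCounts 1.5.0-p3 and the mm10 build, per the submitters' processing notes; how each was set, strand use included, is not given in the sources used here. A further 70 columns of per-sample values in the files were not used.

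Libraries were grouped by their labels. Genes passed edgeR's filter on low counts (at least 10 counts, 15 in total, scaled to the smallest group) and were tested with edgeR 4.0.16 (R 4.3.3) by its quasi-likelihood test, with TMM scaling and Benjamini-Hochberg adjustment over all genes tested. Calls are at an adjusted p of 0.05. The comparisons were chondrocyte with proliferating cultures at 0.5% O2 (6 libraries), the interaction of that change with oxygen (14 libraries), and chondrocyte with osteoblast cultures at 0.5% O2 (6 libraries). The script was tested on simulated data, with 100 genes changed by a log2 fold of 1 and 100 by 2. The share of false calls in each of the 3 comparisons was above the nominal rate of the adjusted p. Calls near the threshold may therefore be less secure than it states. Far more genes are called in the real data, and the share of false calls depends on this, so the simulated share does not carry over. DESeq2 1.42.0, limma-voom 3.58.1, other scalings and filters, a replicate block, a fit over all libraries and leaving out each replicate were alternatives. Residuals of same-numbered libraries correlated at -0.031 to 0.009, so no shared effect of the replicate number was seen. Whether same-numbered libraries were prepared together is not known. Depth limits low genes: 3 counts are 0.0354 CPM over the chondrocyte and 0.0352 CPM over the proliferating group on the composition-scaled level that the fold bounds use, and such floors and counting intervals cover counting error only.

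Genes named were the 12 largest rises and falls among called genes with at least 10 mean counts per group and no overlap, the 6 highest each way among genes with at most 3 counts in 1 group, the 10 most abundant, and of each list the first 4 genes with its largest rise and fall; for the other comparisons, 5 each way. Others named have their values given where a count or a shared pattern turns on them. The lists and comparisons were chosen with earlier results of these data known. Positions are from GENCODE M21 and promoters from RefSeq (GRCm38.p6). Some genes that the rule names are not reported here.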

Additional observations from a re-analysis of the deposited data

Results flagged for a closer look

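The change from proliferating to chondrocyte culture differed between 0.5% and 21% O2 by edgeR's interaction term for several genes named above. The term (change at 0.5% O2 minus change at 21% O2, log2) was negative for H19 (-8.28), Mgarp (-5.95), Itm2a (-5.82), Smtnl2 (-5.72), Hapln1 (-5.30), Vwa1 (-5.28), Col11a2 (-4.98), Acan (-3.24), Plod2 (-2.63) and Pgk1 (-0.98). It was positive for Notum (3.91), Tnfrsf21 (3.49), Glipr1 (3.39), Adra2a (3.07), S100a7a (2.89), Rrm2 (1.66) and Tnn (1.03).

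A single library was marked as apart from the other 3 of its group for 4 genes, and each time it was normoxic proliferating replicate 4. It held 6.79 CPM of Col11a1, 5.64 CPM of Adra2a, 14.3 CPM of S100a7a and 0.07 CPM of Col2a1. The other 3 libraries held 1.78 to 2.32 CPM, 2.85 to 3.19 CPM, 27.3 to 28.9 CPM and no count. In all, 4 of 38 groups of 4 libraries were marked, where chance marks about 1 in 20. The mark of Col2a1 was fixed in advance, because any count is marked where the other 3 libraries hold none. The share of 1 in 20 does not cover such a case. Without that library the term was 2.83 for Adra2a, 3.08 for S100a7a, -0.71 for Col11a1 and, uncalled, -7.03 for Col2a1.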

How the results depend on the processing

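All 175 counts of called genes under the alternatives stayed within 1.5 times those reported. Leaving out single replicates gave 9410 to 10255 calls between chondrocyte and proliferating cultures, 6021 to 6929 for the interaction and 7187 to 8023 against osteoblast cultures. With the replicate number as a block the counts were 9764, 6407 and 7859, of which 9689, 6210 and 7769 were shared with the reported calls. DESeq2 called 9820 genes and limma-voom 10032 in the first comparison. Scaling by library size alone turned Hif1a to -0.31, a call in the other direction (adjusted p = 4.74e-04). It also changed the sign of the medians of basement membrane (-0.26), neural crest (-0.18), NRF2 target (-0.13), mitochondrially encoded (-0.05), and Notch and Hedgehog (-0.02) genes. It moved those of chondrogenic regulator (0.39), ATF4 (0.40), LIF and STAT3 (0.58), chaperone (0.62), IGF axis (0.19), retinoid (0.14), hypoxia (-0.88), HIF subunit (-0.43), CDK inhibitor (-0.69), ribosomal protein (-0.62) and oxidative phosphorylation (-0.36) genes by over 1.5 times. Without the filter on low counts the median was 0.34 for chondrogenic regulators, 0.90 for basement membrane, 0.27 for neural crest, 2.50 for Wnt inhibitor and 5.05 for smooth muscle genes. Requiring 10 counts in every library left fewer genes and put the medians of Wnt inhibitors at -2.54 and NRF2 targets at -0.27. It also moved those of interferon (-1.89), cartilage matrix (3.72), hypertrophy (0.74), osteoblast (1.19), BMP (1.43), craniofacial homeobox (0.65), chondrogenic regulator (0.34) and smooth muscle (1.14) genes by over 1.5 times. Over all alternatives, 32 values of single genes kept their direction and lost the call, and the cause was not tested. Precision is limited for genes near the floor of 3 counts, whose fitted fold changes depend on the prior count.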
